A study of Rattus norvegicus with 50 samples.

Results

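The first 3 days after the end of an inhalation exposure were followed in the lungs of rats that had breathed titanium dioxide (TiO2) P25 nanoparticles. Lungs of exposed rats taken 3 days after the last exposure (D3, 5 rats) were compared with lungs of exposed rats taken right after it (D0, 5 rats), so 10 of the 50 arrays of the series carry the comparison. The members were chosen by sample title alone. All rats were young males of the inbred F344 strain, aged 12 weeks, and the aerosol held 10 mg/m3 of particles, breathed nose-only for 6 hours per day, 5 days per week, over 4 weeks. Control rats of the same age, strain and sex breathed filtered air, and their lungs at D0 (5 rats) and D3 (5 rats) served as context for what changed between both days without particles. Each array held the RNA of the accessory lobe of 1 rat, so the values describe whole lung tissue, in which fewer cells of a type and less RNA per cell cannot be told apart.

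Inhaled particles that settle in the alveoli are taken up by macrophages, and the lung answers with chemokines, acute phase proteins and the recruitment of neutrophils and monocytes. Particles of low solubility can stay in the lung long after inhalation stops. Interferon-stimulated genes encode antiviral proteins and chemokines, and are switched on by interferon through factors that bind a repeated GAAA element in their promoters. Clock genes cycle over the day in every tissue, and lung also holds a high level of flavin monooxygenases and other enzymes that oxidize foreign compounds.

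The 20 arrays of D0 and D3 had a median processed signal between 198 and 465.3, and between 68.75% and 80.35% of their gene spots were well above background by the mark of the extraction software, with no saturated spot. Markers of the lung were well above background on all 10 exposed arrays, namely Sftpc, Sftpb and Sftpa1 of alveolar type 2 cells, Scgb1a1 of club cells, Ager of alveolar type 1 cells, Foxj1 of ciliated cells and Pecam1 of endothelium. None of these markers was a differentially expressed gene (DEG), and their log2 change from D0 to D3 in exposed rats lay between -0.121 for Scgb1a1 and 0.0137 for Pecam1. The direction for Sftpc turned with 75th percentile scaling, where its change was -0.11. Its highest value, 19.01, recurred in all groups of D0 and D3, because quantile normalization gives the brightest probes shared values by rank. Its change near 0 is therefore no measure of a stable level. Of the lists for other tissues, no member was a DEG among 15 genes tested for cardiac muscle, 11 for skeletal muscle, 9 for mesothelium, 9 for fat and 10 for thymus and lymph node. By limma at an unadjusted p under 0.05 with no fold limit 1 of these genes was higher and 3 were lower, all in the mesothelium and the thymus and lymph node lists. Over all genes, 3374 of 25357 passed that p. Of 13 red blood cell genes tested, 1 was a DEG, the embryonic globin Hbe1 (0.588% of all genes were called higher at D3). The rest of that list did not follow it: the median log2 change was -0.166, and at the same unadjusted p 1 member was higher and 4 were lower. In control rats Hbe1 was also called, at least 2.09-fold higher at D3 (limma adjusted p = 0.00109). Hbe1 was well above background on no array of exposed D0 and on 2 of exposed D3 (at least 2.06-fold higher, adjusted p = 0.0485). The call of Hbe1 was lost in 13 settings, among them leaving out exposed D0 replicates 1, 2, 3 or 4 or exposed D3 replicates 2, 3 or 4, with an adjusted p of up to 0.154. One array stood apart by its place. Replicate 1 of exposed D3 was on slide 7, with arrays of later days, whereas the other arrays of D0 and D3 were on slides 1 to 4, and each result that rests on it is given without it where its call changed.

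Between D0 and D3 the lungs of exposed rats changed in 321 of 25357 genes tested, which is 1.27% of them. A gene was called a DEG where limma gave an adjusted p (Benjamini-Hochberg) under 0.05 and the fold reached 1.5. At D3, 149 genes (0.588% of those tested) were over-expressed and 172 (0.678%) were under-expressed against D0. The changes were mostly small, since 211 of the 321 DEGs had a fold under 2 and the median fold was 1.8. In 227 DEGs the 5 values of D3 did not overlap the 5 of D0, a property of 3.17% of all genes tested. On slides 1 to 4, which each held exposed arrays of both days, 295 of the 321 DEGs moved the same way on all 4 slides. Of all genes tested, 6329 (25%) did so. The DEGs were called from these same arrays, so their share is no separate support. With slide as a fixed block the count was 433 DEGs (1.71%), 293 of them among the 321, and in that fit replicate 1 of exposed D3 has no weight, so D3 rests on 4 arrays. Without that array, and with no block, 283 genes were called and 255 of them were among the 321. Scaling each array to its 75th percentile in place of quantile normalization gave 116 over-expressed and 219 under-expressed genes.

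The same 3 days brought change to control lungs too. Control rats had 575 DEGs between D0 and D3 (2.27% of genes tested), 371 over-expressed and 204 under-expressed, and for 5.67% of all genes their 5 values of D3 did not overlap the 5 of D0. Of the 321 DEGs of exposed rats, 107 (33.3%) were also DEGs of control rats in the same direction, which is 18.6% of the 575, and 2 were DEGs in the opposite direction. For 275 of the 321 the change in control rats had the same sign, called or not. Genes over-expressed in exposed rats had a median log2 change of 0.85 in them and 0.42 in control rats, and genes under-expressed had a median of -0.84 and -0.38. These genes were chosen by their change in exposed rats, so smaller medians in control rats can follow from that choice alone. The difference between both changes was tested in the same fit, and it was called for 164 genes (0.647% of genes tested), 61 with the higher change in exposed rats and 103 with the lower. Of those 164 genes, 38 were DEGs of exposed rats, 95 were DEGs of control rats and not of exposed rats, and 31 were DEGs of neither. With slide as a fixed block, 296 differences (1.17%) were called.

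**Figure D1:**
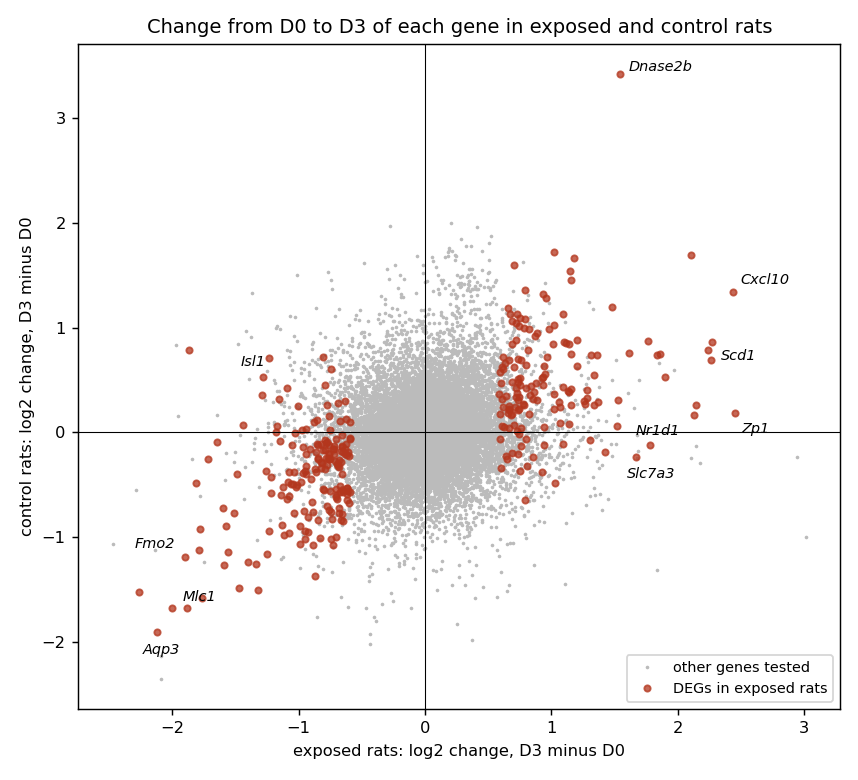
Each point is 1 of 25357 genes, with its log2 change from D0 to D3 in exposed rats on the horizontal axis and in control rats on the vertical axis, and red points are the 321 DEGs of exposed rats. Aqp3, Mlc1 and Fmo2 lie low on both axes, while Zp1, Nr1d1 and Slc7a3 lie far to the right near 0 on the vertical axis.

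Interferon-stimulated genes were the group with the most over-expressed members in exposed lungs at D3. Of 31 genes tested in this list, 13 were over-expressed and none was under-expressed, against 0.588% and 0.678% of all genes. In exposed rats 29 of the 31 had a change above 0, and in control rats 28 did. The median log2 change was 0.34 in exposed rats and 0.23 in control rats, against -0.01 in both over all genes. In control rats 1 member, Cxcl10, was a DEG (1.46% of all genes were over-expressed there). With slide as a fixed block, 11 members were over-expressed in exposed rats, and 11 also without replicate 1 of exposed D3. The promoters of 4 members that rose are shown next, because they hold the element through which interferon is known to act.

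The promoters of RefSeq (build GRCr8) were matched by symbol for 23 of the 31 genes tested, and the 250 bases before the start site were searched on both strands for GAAA, any 2 bases and GAAA again, the core of the interferon-stimulated response element. It was found in 15 of these 23 genes (65.2%), and in 6 of the 9 that were over-expressed and had a promoter entry (66.7%), against 992 of all 27457 genes with a promoter (3.61%). The list was made of genes known to answer to interferon, so its excess over all genes is no separate result. Over-expressed members held the match about as often as all members searched. Mx1, Cxcl11 and Oasl were over-expressed and had no match. A match is a stretch of letters and not a site that was shown to be bound. The sequences run 5′ to 3′ on the gene's own strand up to the base before the start, and capitals mark each match, read as TTTC, 2 bases and TTTC where it lies on the opposite strand:
Irf7 (chr1:205800024-205800273, minus strand): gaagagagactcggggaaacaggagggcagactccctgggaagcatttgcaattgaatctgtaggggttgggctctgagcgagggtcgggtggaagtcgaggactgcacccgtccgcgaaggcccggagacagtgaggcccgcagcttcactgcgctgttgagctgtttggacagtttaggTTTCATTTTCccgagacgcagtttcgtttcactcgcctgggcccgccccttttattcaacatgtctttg
Rsad2 (chr6:48788121-48788370, minus strand): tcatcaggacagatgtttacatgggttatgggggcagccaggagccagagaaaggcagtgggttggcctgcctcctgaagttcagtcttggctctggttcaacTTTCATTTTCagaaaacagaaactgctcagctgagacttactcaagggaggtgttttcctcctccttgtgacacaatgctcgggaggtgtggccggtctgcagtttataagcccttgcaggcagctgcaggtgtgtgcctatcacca
Cxcl10 (chr14:15988816-15989065, plus strand): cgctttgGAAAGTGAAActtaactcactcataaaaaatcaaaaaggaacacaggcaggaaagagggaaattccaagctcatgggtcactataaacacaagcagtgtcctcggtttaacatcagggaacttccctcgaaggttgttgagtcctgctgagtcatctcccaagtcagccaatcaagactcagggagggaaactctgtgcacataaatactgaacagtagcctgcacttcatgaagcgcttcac
Oas1i (chr12:41284976-41285225, plus strand): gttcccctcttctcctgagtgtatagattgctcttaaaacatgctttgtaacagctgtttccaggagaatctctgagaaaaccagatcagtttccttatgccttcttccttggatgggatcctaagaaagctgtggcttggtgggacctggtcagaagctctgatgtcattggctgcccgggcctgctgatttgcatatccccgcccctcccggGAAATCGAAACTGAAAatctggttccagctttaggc
In Irf7 the match starts 69 bases before the start site and in Rsad2 147 bases before it. Cxcl10 holds its match 243 bases before the start, at the far edge of the window, and Oas1i holds a pair of overlapping matches that start 36 and 30 bases before it.

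Cxcl10, a chemokine that draws activated T cells through the receptor CXCR3, had the second largest increase among DEGs with a gene symbol that were also called with slide as a fixed block. Its normalized log2 intensity in exposed rats was 7.96, 8.21, 9.5, 8.90 and 8.26 at D0 and 11.21, 10.54, 11.70, 9.86 and 11.72 at D3. Every rat of D3 was above every rat of D0. The change was 5.44-fold (log2 change 2.44, SE 0.289, limma adjusted p = 9.76e-08). In control rats Cxcl10 rose as well, by 1.34 on the log2 scale (adjusted p = 0.00152), and the difference between both changes was 1.1 (adjusted p = 0.267). Cxcl11, a ligand of the same receptor, rose 3.41-fold (log2 change 1.77, SE 0.314, adjusted p = 0.000227). Mx1, an antiviral GTPase, had log2 intensities of 12.28, 12.64, 12.95, 12.96 and 12.41 at D0 and of 14.34, 13.84, 14.44, 13.19 and 14.11 at D3. The groups did not overlap, and the change was 2.53-fold (log2 change 1.34, SE 0.157, adjusted p = 8.10e-08). Irf7, the transcription factor that amplifies interferon production, had 12.49, 12.39, 12.78, 12.56 and 12.28 at D0 against 14.03, 13.65, 13.91, 12.94 and 13.67 at D3. Here too each D3 value exceeded each D0 value, for a rise of 2.20-fold (log2 change 1.14, SE 0.141, adjusted p = 2.50e-07).

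Replicate 4 of exposed D3 was the lowest of the 5 rats for Cxcl10, Mx1, Irf7, Isg15, Rsad2 and Usp18. Isg15, a ubiquitin-like protein that is joined to other proteins, had 12.74, 12.74, 12.90, 13.05 and 12.36 at D0 and 14.19, 13.75, 14.17, 13.08 and 13.72 at D3, a rise of 2.03-fold (log2 change 1.02, SE 0.174, adjusted p = 0.000124). Its lowest D3 value lay just above its highest D0 value. Rsad2, or viperin, which blocks viral replication, had 11.45, 11.53, 11.91, 11.94 and 11.84 at D0 and 12.82, 12.35, 13.04, 12.12 and 13.02 at D3. It rose 1.92-fold (log2 change 0.94, SE 0.146, adjusted p = 2.54e-05) with no overlap between both days. Rsad2 was the one member of the list whose change differed from that of control rats, where its log2 change was 0.05 (difference 0.89, SE 0.207, adjusted p = 0.0178). That call was lost without replicate 3 of exposed D3 and in a fit of the 20 arrays of D0 and D3 alone, with an adjusted p of up to 0.283. With slide as a fixed block Mx1 and Irf7 also differed from control rats, with adjusted p of 0.0330 and 0.0432.

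The remaining members over-expressed at D3 were sensors and effectors of the same response. Usp18, which removes Isg15 from its targets, rose by 0.78 on the log2 scale (SE 0.120, adjusted p = 2.13e-05). Ddx58, the RNA sensor RIG-I, rose by 0.62 (SE 0.0857, adjusted p = 2.95e-06), Oasl by 1.07 (SE 0.209, adjusted p = 0.000955) and Oas1i by 0.82 (SE 0.159, adjusted p = 0.000762). Oasl2, Oasl and Oas1i belong to a family of close relatives, and the array may not separate each from the others. Ifit2 and Ifit3, which bind viral RNA, rose by 0.75 and 0.66 (adjusted p = 0.000189 and 0.00254). Ddx58, Ifit3 and Oasl2 were near the fold limit and lost their call in some settings: Ifit3 (change 0.58 with slide as a fixed block) without replicate 1 of exposed D3, Oasl2 (0.62, SE 0.144) without replicate 5 of exposed D0 or replicates 1, 2 or 3 of exposed D3, and both in the fit of the 20 arrays, with adjusted p of up to 0.0784 and 0.137. Ddx58 fell short of the fold limit alone, without replicate 1 of exposed D0 or replicates 3 or 5 of exposed D3. Zbp1, a sensor of nucleic acids that was not in the list, rose 2.58-fold (log2 change 1.37, SE 0.148, adjusted p = 1.28e-08). It was a DEG of control rats too, with a log2 change of 0.74 (adjusted p = 0.000603). The difference of 0.63 was not called (adjusted p = 0.186). Members that were not called included the signalling factor Irf9 (log2 change 0.22, adjusted p = 0.341) and Mx2 (0.05, adjusted p = 0.942).

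**Figure D2:**
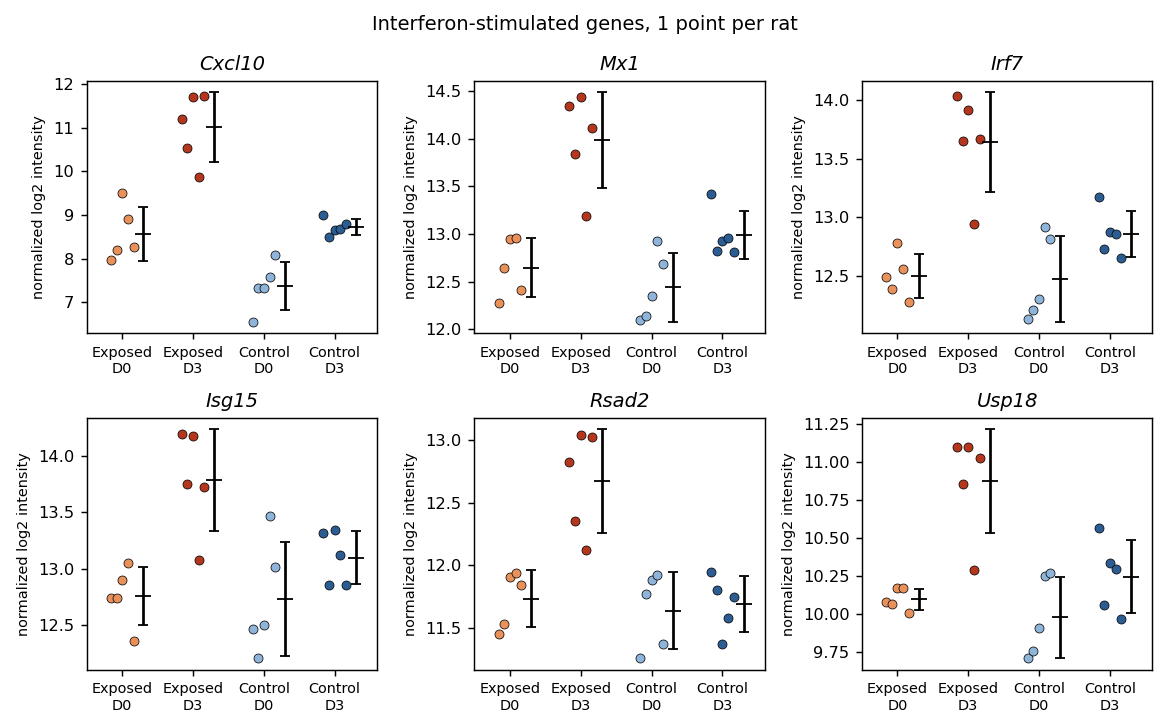
Normalized log2 intensity of 6 interferon-stimulated genes, 1 point per rat, with the mean and SD of the 5 rats of each group as a bar. In each panel the 5 exposed rats of D3 lie above the 5 exposed rats of D0, and replicate 4, the fourth point from the left, is the lowest at D3.

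Fatty acid desaturases rose in exposed lungs. Of 20 genes tested for fatty acid synthesis, 4 were over-expressed at D3 and none was under-expressed (0.588% and 0.678% of all genes), and 17 had a change above 0, with a median log2 change of 0.25 in exposed and 0.22 in control rats. Scd1, named Scd in RefSeq, encodes the stearoyl-CoA desaturase that makes monounsaturated fatty acids, in lung above all for surfactant lipids. Its log2 intensity was 13.32, 13.11, 13.10, 13.27 and 13.37 at D0 and 15.33, 15.57, 15.49, 15.72 and 15.42 at D3. The days did not overlap, and the change was 4.83-fold (log2 change 2.27, SE 0.183, adjusted p = 7.54e-12). In control rats Scd1 rose by 0.86 (adjusted p = 0.00126), and the difference between both changes was 1.41 (SE 0.258, adjusted p = 0.00116). Scd4, a close relative, rose 3.06-fold (log2 change 1.62, SE 0.146, adjusted p = 1.61e-10), and its difference from control rats was 0.86 (adjusted p = 0.0247), which was lost without control D0 replicate 1, exposed D0 replicate 3 or control D3 replicate 5, and in the fit of the 20 arrays, with adjusted p of up to 0.259. Scd, named Scd2 in RefSeq, rose 1.79-fold (log2 change 0.84, SE 0.0874, adjusted p = 4.96e-09) and Fads2, the delta-6 desaturase of polyunsaturated fatty acids, 1.68-fold (log2 change 0.75, SE 0.125, adjusted p = 9.63e-05). Cpt1a, which admits fatty acids to mitochondria, was the 1 DEG among 32 genes tested for fat oxidation (0.678% of all genes were under-expressed). It fell 1.57-fold (log2 change -0.65, SE 0.0938, adjusted p = 6.73e-06), close to its log2 change of -0.57 in control rats. Of 25 cholesterol synthesis genes none was called in exposed rats by limma. At an unadjusted p under 0.05 with no fold limit, 8 were higher and 2 lower, against 3374 of all 25357 genes in either direction. Hmgcs1, the synthase that feeds this pathway, had a log2 change of -0.26 (adjusted p = 0.294) in exposed and 0.39 (adjusted p = 0.0289) in control rats. The difference of -0.65 was called (adjusted p = 0.0374) and was lost in 13 settings, among them slide as a fixed block and leaving out control D0 replicates 4 or 5, exposed D0 replicates 4 or 5, control D3 replicates 1, 2 or 5 or exposed D3 replicates 1 or 2, with an adjusted p of up to 0.353.

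Clock genes changed in both directions. Of 16 tested, 3 rose and 4 fell in exposed rats (0.588% and 0.678% of all genes). In control rats 2, Per2 and Cry1, were DEGs, both under-expressed (0.805% of all genes). Nr1d1, the repressor REV-ERB alpha, had log2 intensities of 7.76, 7.13, 7.29, 6.65 and 6.54 in exposed rats at D0 and of 9.33, 8.93, 9.13, 9.01 and 9.61 at D3. Each D3 rat was above each D0 rat, and the rise was 4.37-fold (log2 change 2.13, SE 0.325, adjusted p = 1.86e-05). Control rats stood higher on both days, between 10.18 and 10.64 at D0 and between 10.27 and 10.79 at D3, with a log2 change of 0.16 (adjusted p = 0.895). The difference between both changes was 1.97 (SE 0.460, adjusted p = 0.0195). It missed the threshold without replicate 5 of exposed D0, where the adjusted p was 0.0555. The clock list was likewise made from known function, so its share of a promoter element is no separate result. The E-box CACGTG, which the activators of the clock bind, was searched in the same way and lay in 4 of 15 clock genes with a promoter entry (26.7%), against 6.18% of all genes. One of the promoters of Nr1d1 holds it 191 bases before the start, in capitals here:
Nr1d1 (chr10:84229455-84229704, minus strand): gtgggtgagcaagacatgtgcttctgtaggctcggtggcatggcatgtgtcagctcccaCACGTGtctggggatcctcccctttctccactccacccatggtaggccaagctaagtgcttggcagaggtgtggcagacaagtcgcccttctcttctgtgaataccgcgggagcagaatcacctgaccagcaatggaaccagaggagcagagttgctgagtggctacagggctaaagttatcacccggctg

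Per2, a repressor of the clock, had 10.44, 10.54, 10.29, 10.43 and 10.30 at D0 and 8.56, 8.20, 8.65, 8.59 and 9.10 at D3. It fell 3.44-fold in exposed rats (log2 change -1.78, SE 0.211, adjusted p = 9.76e-08) with no overlap between both days, and by 0.92 on the log2 scale in control rats (adjusted p = 0.00291). Cry1, its partner, fell 2.16-fold (log2 change -1.11, SE 0.133, adjusted p = 1.05e-07), against a log2 change of -0.99 in control rats (adjusted p = 7.52e-07). Per3 fell by 0.87 (adjusted p = 0.000448) and Tef, an output factor, by 0.82 (adjusted p = 8.10e-07). On the activating side, Arntl, the clock factor BMAL1, rose by 0.73 on the log2 scale (SE 0.169, adjusted p = 0.00609) and Npas2, which pairs with it, by 1.06 (SE 0.239, adjusted p = 0.00441). The 2 probes of Npas2 disagreed in size, with log2 changes of 0.22 and 1.90, and the call was lost in the fit of the 20 arrays (adjusted p = 0.126). Dbp, an output factor, had a log2 change of -0.49 (adjusted p = 0.357). The labels do not give the hour at which lungs were taken. Genes induced by glucocorticoids, the hormones of the stress response, were mostly not called: 2 of 20 were under-expressed (0.678% of all genes). These were Sult1a1, a sulfotransferase (log2 change -1.04, SE 0.165, adjusted p = 3.48e-05), and Lcn2. By limma at an unadjusted p under 0.05 with no fold limit, 9 of the 20 were lower in exposed rats and none was higher. Over all genes, 3374 of 25357 passed that p in either direction. The median log2 change of the list was -0.264 in exposed and -0.0732 in control rats. Fkbp5, a steroid-induced chaperone partner, had a log2 change of -0.69 in exposed (adjusted p = 0.294) and -0.65 in control rats (adjusted p = 0.264), with both days overlapping.

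**Figure D3:**
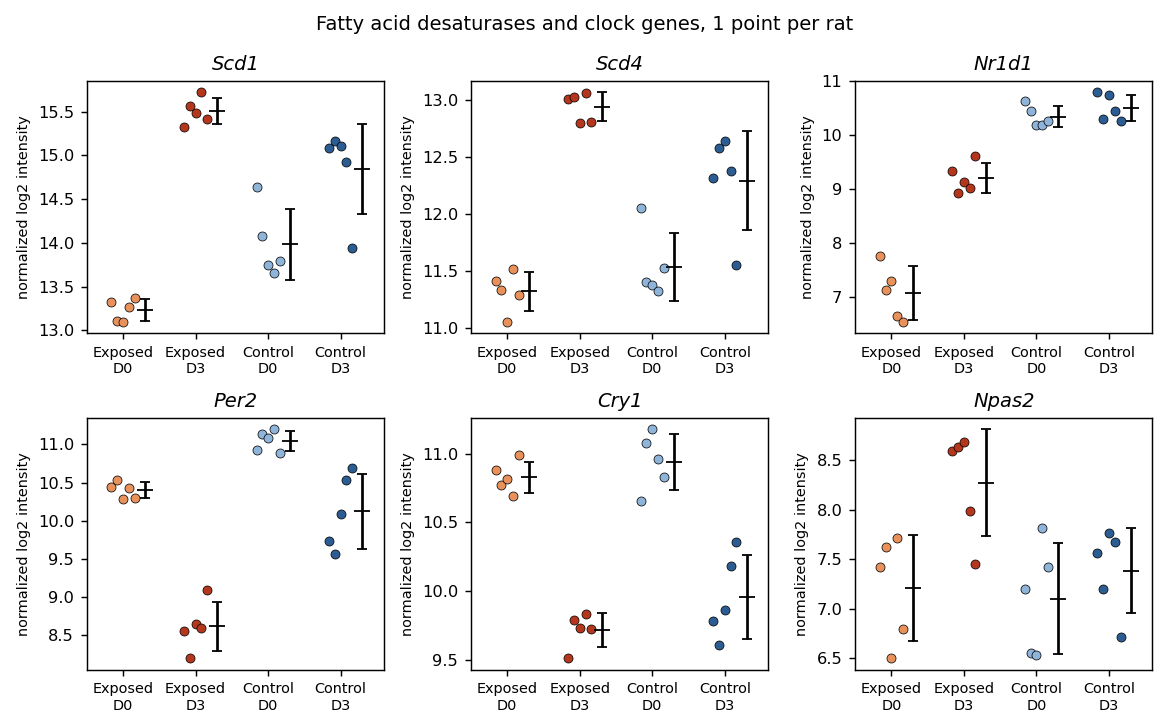
Normalized log2 intensity of the desaturases Scd1 and Scd4 and of the clock genes Nr1d1, Per2, Cry1 and Npas2, 1 point per rat, with the mean and SD of each group of 5 as a bar. Scd1, Scd4 and Nr1d1 are higher and Per2 and Cry1 lower in all 5 exposed rats of D3 than in all 5 of D0, and for Nr1d1 the control rats stay near the same level on both days.

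Many of the largest decreases were in enzymes and membrane proteins that fell in control rats as well. Aqp3, a channel for water and glycerol in airway epithelium, had 11.30, 11.04, 10.96, 10.65 and 11.49 at D0 and 8.80, 8.88, 8.81, 9.11 and 9.22 at D3 in exposed rats. It fell 4.36-fold (log2 change -2.12, SE 0.236, adjusted p = 2.53e-08) with no overlap, against a log2 change of -1.91 in control rats (adjusted p = 1.29e-07). Fmo2, the main flavin monooxygenase of the lung, had 14.91, 15.09, 14.65, 14.92 and 15.01 at D0 and 12.95, 12.86, 12.93, 13.27 and 13.10 at D3. It fell 3.72-fold (log2 change -1.90, SE 0.145, adjusted p = 2.17e-12), and by 1.19 on the log2 scale in control rats (adjusted p = 8.63e-08). Fmo6 of the same family fell 2.95-fold (log2 change -1.56, adjusted p = 1.09e-10). Cyp2e1, the cytochrome P450 that oxidizes ethanol and small solvents, fell 2.77-fold (log2 change -1.47, SE 0.166, adjusted p = 3.69e-08), against -1.49 in control rats. Cdo1, which starts the breakdown of cysteine, fell 2.64-fold, and Inmt, a methyltransferase of lung, 2.53-fold (log2 change -1.40 and -1.34, adjusted p = 9.74e-09 and 9.76e-08), with log2 changes of -1.24 and -1.26 in control rats. Mlc1, a membrane protein, fell 4.01-fold (log2 change -2.0, adjusted p = 4.77e-10) and Mro, or maestro, 3.68-fold (log2 change -1.88, adjusted p = 4.47e-05), against -1.68 in control rats for both. For none of these 8 genes was the difference between exposed and control rats called.

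Of 24 genes tested for the oxidative stress factor Nrf2, 2 were under-expressed and none was over-expressed in exposed rats (0.678% and 0.588% of all genes), with a median log2 change of -0.17 in exposed and 0.13 in control rats. At an unadjusted p under 0.05 by limma and no fold limit, 11 of the 24 were lower and 2 were higher. Over all genes, 3374 of 25357 passed that p. In control rats 2 of the 24 were under-expressed as well (0.805% of all genes). The 2 genes under-expressed in exposed rats were glutathione transferases. Gsta1 had 15.51, 15.43, 15.26, 15.35 and 15.51 at D0 and 14.17, 14.26, 14.17, 14.36 and 14.40 at D3, a fall of 2.21-fold (log2 change -1.14, SE 0.0759, adjusted p = 4.72e-14). The spread within each day was small beside this change, and the fall was larger than in control rats by 0.54 on the log2 scale (adjusted p = 0.00326), which is below the fold limit. Gsta3 fell 1.62-fold (log2 change -0.69, adjusted p = 1.1e-08), and its 2 probes gave -1.1 and -0.28. Gsta1 and Gsta3 had log2 changes of -0.60 and -0.30 in control rats (limma adjusted p = 1.84e-07 and 0.00605). Aldh3a1, an aldehyde dehydrogenase, fell 2.02-fold (log2 change -1.02, SE 0.0904, adjusted p = 1.09e-10) against -0.52 in control rats, and Aox3, an aldehyde oxidase, 1.99-fold (log2 change -0.99, adjusted p = 0.000999) against -1.07. Sod2, the superoxide dismutase of mitochondria, had a log2 change of -0.53 in exposed rats (adjusted p = 0.00109, under the fold limit) and 0.30 in control rats, and the difference of -0.83 was called (adjusted p = 0.000922).

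Some of the largest changes were in genes with no list. Zp1, named for a protein of the egg coat, had the largest increase among DEGs with a symbol that were also called with slide as a fixed block. Its log2 intensity in exposed rats was 6.01, 6.48, 6.77, 6.34 and 6.79 at D0 and 8.85, 8.63, 8.45, 9.19 and 9.52 at D3, a rise of 5.47-fold (log2 change 2.45, SE 0.287, adjusted p = 8.10e-08). Exposed rats at D0 were the low group, since control rats lay between 7.03 and 8.76 at D0 and between 7.52 and 8.59 at D3. The difference from control rats was 2.27 (adjusted p = 0.000903). Irg1, now Acod1, which makes the macrophage metabolite itaconate, rose 4.32-fold in exposed rats (log2 change 2.11, SE 0.292, adjusted p = 2.55e-06) and at least 1.7-fold in control rats, where it was well above background on no array of D0. Spon2, a secreted pattern receptor, rose 3.64-fold (log2 change 1.86, adjusted p = 4.81e-09) and differed from control rats by 1.11 (adjusted p = 0.0283), a call lost in 7 settings, 6 of which left out 1 rat, namely control D0 replicate 2, exposed D0 replicate 1, control D3 replicates 4 or 5 or exposed D3 replicates 1 or 3, with adjusted p of up to 0.144. Hgd, which breaks down tyrosine, rose 3.58-fold (log2 change 1.84, SE 0.157, adjusted p = 4.14e-11), and its difference from control rats was 1.1 (adjusted p = 0.00349; 0.210 in the fit of the 20 arrays). Slc7a3, a carrier of cationic amino acids, had 6.20, 5.95, 5.68, 5.56 and 6.25 at D0 and 7.73, 7.55, 7.76, 6.88 and 8.08 at D3, a rise of 3.18-fold (log2 change 1.67, SE 0.209, adjusted p = 3.16e-07). It had a log2 change of -0.23 in control rats, and the difference of 1.90 was called (adjusted p = 9.21e-05).

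Other genes with large changes were Nat8, Isl1, Hal, Cys1, Apol2 and Dnase2b. Nat8, an acetyltransferase, fell 3.29-fold (log2 change -1.72, SE 0.206, adjusted p = 1.22e-07), with a difference from control rats of -1.46 (adjusted p = 0.00331). Isl1, a transcription factor of nerve and endocrine cells, was at least 2.24-fold lower at D3 than at D0 (adjusted p = 0.000210): it was well above background on all 5 arrays of D0 and on none of D3, so the lowest signals of probes well above background set the bound. The fitted difference of its change from control rats, -1.81 (adjusted p = 0.000763), rests on that dim group and is not an exact size. Hal, which breaks down histidine, was well above background on no array of exposed D0 and on 3 of D3, and was at least 2.93-fold higher at D3 (adjusted p = 9.79e-05), with a fitted difference from control rats of 1.90 (adjusted p = 0.0123; up to 0.190 in the 4 settings that lost it). Hal was well above background on no control array of either day, so that difference is not an exact size either. Cys1, a protein of cilia, fell 3.03-fold (log2 change -1.60, adjusted p = 7.02e-07), and by 0.73 on the log2 scale in control rats (adjusted p = 0.0214), and Apol2, an apolipoprotein L that was well above background on 1 array of D3, fell 2.98-fold (log2 change -1.58, adjusted p = 0.000975), against a log2 change of -0.90 in control rats (adjusted p = 0.0707). For neither Cys1 nor Apol2 was the difference from control rats called (adjusted p = 0.191 and 0.676). Dnase2b, an acid nuclease, rose 2.92-fold in exposed rats (log2 change 1.54, adjusted p = 0.00166; 0.0608 in the fit of the 20 arrays) and at least 5.32-fold in control rats, where it was well above background on no array of D0. The fitted difference of -1.88 (adjusted p = 0.0232), which rests on that dim group, was lost in 10 settings, among them leaving out control D0 replicate 4, exposed D0 replicates 2 or 5, control D3 replicates 1 or 2 or exposed D3 replicate 1, with adjusted p of up to 0.556. Dlk1, a growth regulator, had a log2 change of 0.37 in exposed rats (adjusted p = 0.814), where it was well above background on 2 arrays of D0 and 1 of D3, against -1.99 in control rats. That difference of 2.36 (adjusted p = 0.0210) was lost without exposed D0 replicates 2 or 3 or exposed D3 replicate 5, with adjusted p of up to 0.259.

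Some genes of the extracellular matrix changed. Of 33 tested, 6 were over-expressed and 2 under-expressed at D3 in exposed rats (0.588% and 0.678% of all genes). The median log2 change was 0.165, against 0.0544 in control rats, where 5 were over-expressed (1.46% of all genes). Tnc, tenascin C of healing tissue, had 6.23, 7.00, 6.43, 6.84 and 6.54 at D0 and 8.01, 7.49, 7.98, 7.78 and 7.58 at D3. It rose 2.23-fold with no overlap (log2 change 1.16, SE 0.142, adjusted p = 2.16e-07), against 0.75 in control rats. Col1a1, the main collagen of scar tissue, rose 2.14-fold (log2 change 1.1, SE 0.123, adjusted p = 3.00e-08), and Loxl1, which joins elastin fibres, 2.02-fold (log2 change 1.01, SE 0.103, adjusted p = 3.58e-09), with log2 changes of 0.86 and 0.85 in control rats. Eln, elastin itself, whose 2 probes gave 0.39 and 1.2 on the log2 scale, had values between 8.78 and 9.0 at D0 and between 9.21 and 10.04 at D3, and rose by 0.80 (adjusted p = 0.00146), whereas its log2 change in control rats was -0.07. The difference of 0.86 had an adjusted p of 0.0553, and was called with slide as a fixed block (0.85, adjusted p = 0.0347). Mmp7, an epithelial protease, rose by 0.94 (adjusted p = 0.0135; 0.0654 without exposed D3 replicate 5). Timp3, an inhibitor of matrix proteases, fell by 1.08 on the log2 scale (SE 0.235, adjusted p = 0.00335) and Ctgf, a matrix-bound growth regulator, by 0.69 (adjusted p = 0.000151).

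Chemokines split. Of 35 ligands tested, 5 rose and 2 fell in exposed rats (0.588% and 0.678% of all genes), with a median log2 change of 0.05 against 0.24 in control rats. Besides Cxcl10 and Cxcl11, the ligands that rose were Ccl7, which draws monocytes (log2 change 1.02, SE 0.245, adjusted p = 0.00878; 0.0602 in the fit of the 20 arrays), Xcl1, a ligand made by T and NK cells (0.98, SE 0.174, adjusted p = 0.000228), and Ccl12 (1.48, SE 0.414, adjusted p = 0.0318). Ccl7 and Xcl1 rose by 1.02 and 0.99 in control rats. Ccl12 and Cxcl11 had log2 changes of 1.20 and 0.87 there, which limma did not call (adjusted p = 0.0717 and 0.0901). For none of these ligands was the difference between exposed and control rats called. Ccl7 had 9.69, 9.77, 10.55, 9.76 and 10.14 at D0 and 11.23, 10.85, 11.38, 10.32 and 11.22 at D3, with 1 rat of D3 within the range of D0. The call of Ccl12 was lost without any 1 of exposed D0 replicates 1, 2 or 4 or exposed D3 replicates 1, 3 or 5, with adjusted p of up to 0.106. Ccl20, made by epithelium and drawing cells with CCR6, had 10.00, 10.07, 10.07, 10.49 and 10.21 at D0 and 8.79, 8.75, 9.24, 9.55 and 9.32 at D3. It fell 2.05-fold with no overlap (log2 change -1.04, SE 0.135, adjusted p = 7.75e-07), and Ccl11, or eotaxin, fell by 0.78 (adjusted p = 0.00335), a fall that was under the fold limit without exposed D0 replicate 1. In control rats Ccl20 had a log2 change of -0.38 and Ccl11 of -0.10. The differences of -0.65 and -0.68 were not called (adjusted p = 0.105 and 0.229). Ccl2 had a log2 change of 0.45 in exposed rats (adjusted p = 0.397) and stood between 12.39 and 13.13 at D0, above the range of 9.77 to 10.62 in control rats of the same day. Cxcl1, which draws neutrophils, had a log2 change of -0.83 (SE 0.250, adjusted p = 0.0557) and passed the threshold with slide as a fixed block (adjusted p = 0.0480) and in 6 other settings, among them without exposed D3 replicates 3 or 4.

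Among 43 acute phase and complement genes 1 rose and 3 fell in exposed rats (0.588% and 0.678% of all genes), and their median log2 change was 0.03. Lcn2, or lipocalin 2, which withholds iron from bacteria, had 12.49, 12.82, 12.63, 12.91 and 12.59 at D0 and 12.43, 11.92, 12.12, 11.78 and 11.44 at D3. The ranges only just did not overlap, and it fell 1.68-fold (log2 change -0.75, SE 0.207, adjusted p = 0.0302), while control rats stayed between 8.93 and 9.88 at D0 and between 8.92 and 9.93 at D3. The call of Lcn2 was lost without any 1 of exposed D0 replicates 2 or 4 or exposed D3 replicates 2, 4 or 5, with adjusted p of up to 0.117. Its difference from control rats, -0.77, was not called by limma (adjusted p = 0.282, or 0.0537 with slide as a fixed block). C9, the last component of the complement pore, fell by 0.98 (SE 0.254, adjusted p = 0.0181; 0.104 without exposed D3 replicate 1), and Serpina3n, an acute phase inhibitor, by 0.70 (adjusted p = 0.00248), against a log2 change of -1.0 in control rats. C3ar1, a complement receptor of macrophages, rose by 0.73 (adjusted p = 0.00445), against 1.13. C3 had a log2 change of -0.10 (adjusted p = 0.731), and Orm1 of -0.52 (adjusted p = 0.659), although all 5 values of Orm1 at D3, between 8.52 and 8.97, lay below all 5 at D0, between 9.11 and 9.47.

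Markers of inflammatory cells were mostly not called. In exposed rats 1 of 23 neutrophil genes, Ngp, was over-expressed (log2 change 1.20, adjusted p = 0.0483), at a signal that was well above background on 2 arrays of D0 and 3 of D3, and that call was lost in 13 settings, among them leaving out exposed D0 replicates 2, 3 or 4 or exposed D3 replicates 2, 3, 4 or 5, with adjusted p of up to 0.227. S100a9, an abundant protein of neutrophils, was between 16.08 and 16.62 at D0 and between 15.97 and 16.57 at D3 (log2 change -0.01, adjusted p = 0.989), while control rats lay between 14.44 and 14.97 at D0 and between 14.18 and 15.15 at D3. The direction of S100a9 turned in several settings, with slide as a fixed block among them. Of 36 macrophage genes 1 was under-expressed, Cd163, a receptor of resident macrophages for haemoglobin (log2 change -0.89, SE 0.135, adjusted p = 1.72e-05), and it had a log2 change of -0.76 in control rats (adjusted p = 0.000110). Mmp12, the macrophage elastase, had a log2 change of 0.35 (adjusted p = 0.410), and Spp1, osteopontin, of 0.72 (SE 0.273, adjusted p = 0.172). Retnla, a mark of alternative activation, had a log2 change of 0.27 (adjusted p = 0.584), and Lpo, an airway peroxidase, of 0.36 (adjusted p = 0.721). Of 34 cytokines and receptors 1 was under-expressed, Il13, the cytokine of type 2 immunity, with 6.11, 4.54, 4.25, 5.90 and 5.80 at D0 and 4.57, 3.91, 2.68, 4.89 and 3.09 at D3. The days overlapped, Il13 was well above background on 1 array of D3, and its fall (log2 change -1.49, SE 0.427, adjusted p = 0.0388) was lost without any 1 of exposed D0 replicates 1, 4 or 5 or exposed D3 replicates 2, 3 or 5, with adjusted p of up to 0.220. Fcnb, a ficolin of neutrophils and monocytes, had a log2 change of 0.51 in exposed rats (adjusted p = 0.216) and of 1.81 in control rats, with a difference of -1.30 (adjusted p = 0.0131; 0.163 in the fit of the 20 arrays).

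**Figure D4:**
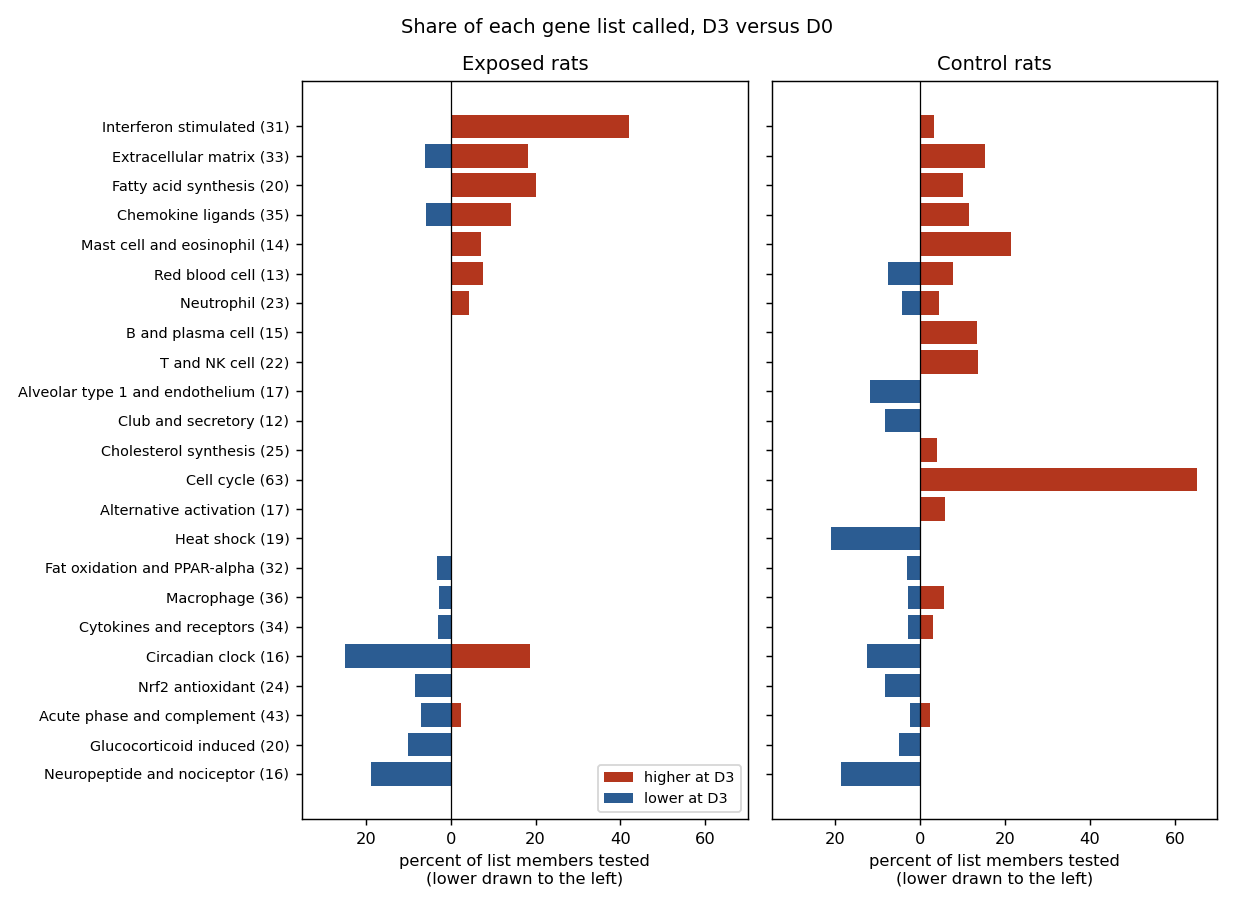
Share of the tested members of each gene list that was over-expressed (right, red) or under-expressed (left, blue) at D3 against D0, in exposed rats and in control rats, for lists with at least 1 DEG in either group. The numbers in brackets are the genes tested. Interferon-stimulated genes lead in exposed rats with 13 of 31, and cell cycle genes in control rats with 41 of 63.

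Cell cycle genes set the exposed rats apart from control rats by what did not change. Of 63 tested, none was a DEG in exposed rats (1.27% of all genes were), where 54 had a change above 0 and the median log2 change was 0.19. In control rats 41 were over-expressed with a median of 0.98, against 1.46% of all genes. At an unadjusted p under 0.05 and no fold limit, 21 of the 63 were higher at D3 in exposed rats and none was lower. Over all genes, 3374 of 25357 passed that p. The change in exposed rats was smaller than that in control rats for 29 of the 63 (0.406% of all genes tested), and larger for none. Exposed lungs were already high at D0, by a median of 1.1 on the log2 scale over the list against control lungs of the same day, and by 0.345 at D3. Top2a, the topoisomerase of dividing cells, had 7.25, 7.40, 7.59, 7.04 and 7.87 in exposed rats at D0 and 7.37, 7.54, 7.54, 7.94 and 8.17 at D3, against 5.52, 4.94, 5.95, 5.34 and 5.82 in control rats at D0 and 7.55, 7.53, 7.21, 7.02 and 7.47 at D3. Control rats at D0 were the low group and the other groups overlapped. The log2 change of Top2a was 0.28 (SE 0.207, adjusted p = 0.654) in exposed and 1.84 (adjusted p = 1.40e-08) in control rats, a difference of -1.56 (SE 0.293, adjusted p = 0.00173). Cdk1, which drives mitosis, had a log2 change of 0.19 in exposed rats (adjusted p = 0.389) and differed by -1.21 (adjusted p = 1.99e-07). Cep55, which separates daughter cells, and Ube2t, a ubiquitin ligase partner in DNA repair, both differed by -1.57 (adjusted p = 1.74e-07 and 2.63e-06). Mki67, the proliferation antigen Ki-67, had 9.26, 9.34, 9.61, 9.28 and 9.5 in exposed rats at D0 and 9.89, 9.82, 9.91, 9.73 and 10.04 at D3, so each D3 value was above each D0 value (log2 change 0.48, SE 0.0859, adjusted p = 0.000228, under the fold limit). It rose by 1.22 in control rats, and the difference of -0.74 was called (adjusted p = 0.000257).

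Chaperones of the heat shock response had the same kind of pattern with the opposite sign. None of 19 tested was a DEG in exposed rats (median log2 change 0.11), where 1.27% of all genes were. In control rats 4 were under-expressed (median -0.36), against 0.805% of all genes. At an unadjusted p under 0.05 and no fold limit, 3 of the 19 were higher and 1 lower at D3 in exposed rats. Over all genes, 3374 of 25357 passed that p. The difference was called for 5 of the 19, all with the higher change in exposed rats (0.241% of all genes), and for 9 with slide as a fixed block. Hspb1, a small chaperone, had values between 14.45 and 14.66 in exposed rats at D0 and between 14.53 and 14.74 at D3, a log2 change of 0.09 (adjusted p = 0.738) that turned to -0.04 with normexp background correction, while it fell by 0.77 in control rats (adjusted p = 7.86e-10) for a difference of 0.86 (adjusted p = 3.52e-06). Dnajb1, a co-chaperone, had a log2 change of 0.31 in exposed rats (adjusted p = 0.297) and differed by 1.05 (adjusted p = 0.00178; 0.0656 in the fit of the 20 arrays). Hspa1b, the inducible Hsp70, had 6.94, 6.78, 6.74, 7.26 and 7.19 in exposed rats at D0 and 6.69, 6.98, 7.18, 8.31 and 8.70 at D3. Replicates 4 and 5 of D3 were above all rats of D0 and the other D3 rats were not, and the log2 change was 0.59 (SE 0.277, adjusted p = 0.336), or 0.82 (adjusted p = 0.0318) with slide as a fixed block. The difference from control rats was 1.77 (SE 0.392, adjusted p = 0.0122; 0.212 in the fit of the 20 arrays).

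**Figure D5:**
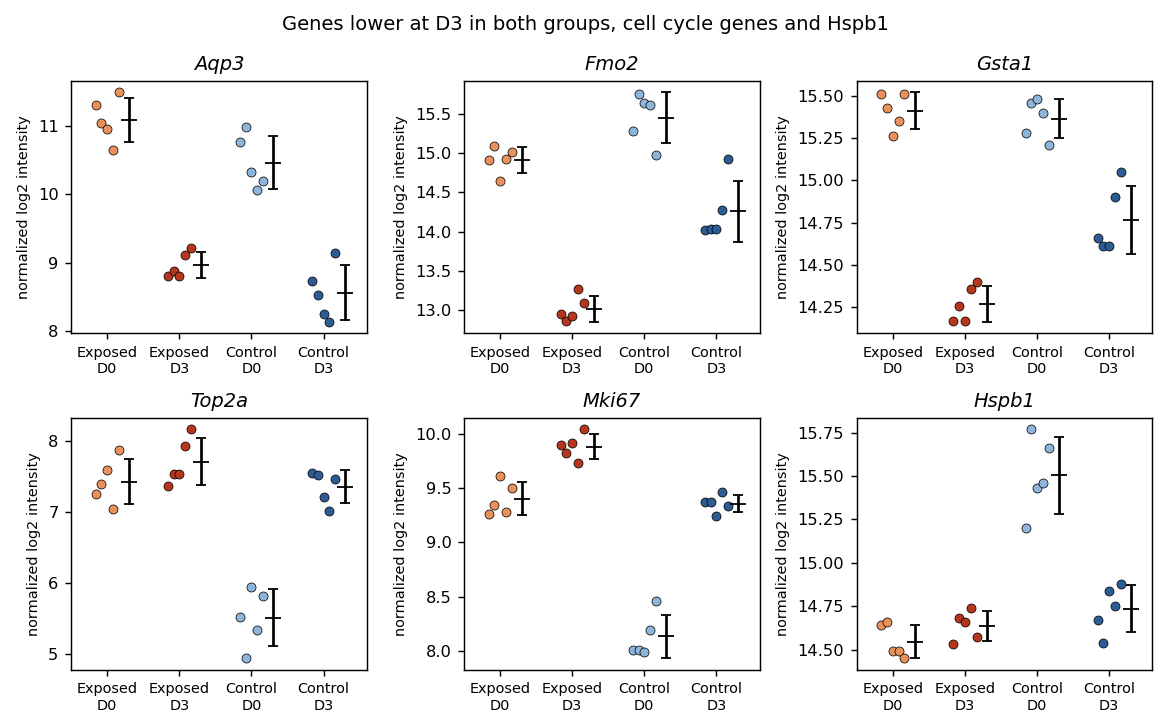
Normalized log2 intensity, 1 point per rat, with the mean and SD of each group of 5 as a bar, for Aqp3, Fmo2 and Gsta1, which fell in exposed and control rats, the cell cycle genes Top2a and Mki67, and the chaperone Hspb1. For Top2a and Mki67 the control rats of D0 are the low group, and for Hspb1 they are the high group, while the exposed rats of D0 and D3 overlap for Top2a and Hspb1.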

How the data were processed

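RNA of 50 rat lungs (100 ng each, Cy3) was hybridized to 1-colour Agilent arrays. The authors deposited scanner files of Feature Extraction 11.0.1.1, whose processed signal is a background-corrected intensity per spot, and a series matrix of quantile-normalized intensity. From the processed signals, spots flagged as outliers were left out, a probe was kept if 5 or more arrays had it above the negative control spots (their 95th percentile), and log2 values were quantile normalized and averaged by gene name, which left 25357 genes from 29724 of 30367 probes. Levels of different probes are not comparable. In 22 files, 84 spot names altered by a spreadsheet were restored. Changes were fitted with limma 3.58.1 in R 4.3.3 as 10 group means over the 50 arrays, two-sided, with Benjamini-Hochberg adjustment over all genes. A call needed a fold of at least 1.5 and an adjusted p under 0.05. The code was tested on simulated data.

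Named genes were the 12 largest increases and decreases called with and without slide as a fixed block, up to 4 called members per list, the 6 largest differences from control rats per sign, and 20 genes followed whatever they did. Other genes were named after their values were seen, and some results are not reported here. The members and lists were chosen with earlier results of these data known. Replicates were separate rats per the labels, and the number of arrays limits the precision (median SE of a change 0.167 on the log2 scale). Alternatives were slide as a fixed or random block, the replicate number as a block, 75th percentile scaling, normexp background correction, the series matrix, other probe filters and summaries, no fold limit, the 20 arrays of D0 and D3 alone, and leaving out each rat. The authors' own fold changes and p-values were not used.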

Additional observations from a re-analysis of the deposited data

Results flagged for a closer look

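Among 212 groups of 5 rats examined for the genes named here, 9 held a rat far from the other 4 by Dixon's criterion, and chance alone gives about 1 in 20. In exposed rats of D3, replicate 4 was low for Oasl (log2 intensity 7.18, nearest rat 7.95) and Zbp1 (7.99, nearest 8.73) and high for the basophil protease Mcpt8l3 (6.52, nearest 5.80). Replicate 5 of D3 was high for C3 (16.35) and low for Mcpt10 (6.68). Replicate 1 of D3, the array on slide 7, was low for Calca (6.41) and high for Gal (3.67). At D0, replicate 3 was low for Apol2 (4.50) and replicate 5 for Fads2 (7.26).

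The change from D0 to D3 differed between exposed and control rats, by limma's test of the difference, for 25 of the genes named here. On the log2 scale, exposed minus control, the difference was 2.27 for Zp1, 1.41 for Scd1, 1.97 for Nr1d1, 1.11 for Spon2, 1.1 for Hgd, 1.90 for Hal, 1.90 for Slc7a3, 0.86 for Scd4, 2.36 for Dlk1 and 0.89 for Rsad2. It was 1.77 for Hspa1b, 0.86 for Hspb1 and 1.05 for Dnajb1. Lower changes in exposed rats were those of Olr1424 (-2.65), Nat8 (-1.46), Dnase2b (-1.88), Isl1 (-1.81), Cep55 (-1.57), Ube2t (-1.57), Top2a (-1.56), Cdk1 (-1.21), Mki67 (-0.74), Hmgcs1 (-0.65), Fcnb (-1.30) and Sod2 (-0.83). For Olr1424, Dnase2b, Isl1 and Hal at least 1 of the 4 groups was well above background on no array, so these fitted differences are not exact sizes. The Olr1424 difference was lost in 11 settings, with an adjusted p of up to 0.364, namely in the fit of the 20 arrays and without any 1 of control D0 replicates 1, 2 or 5, exposed D0 replicates 4 or 5, control D3 replicates 1, 3 or 5 or exposed D3 replicates 1 or 3 (0.0670 without exposed D3 replicate 1).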

How the results depend on the processing

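The median change of each of the 32 gene lists moved by less than the median SE of a change in the settings run for lists. The exposed count of 321 DEGs was 176 with normexp background correction, 205 with the series matrix and 865 with no fold limit, and the control count of 575 was 257, 295 and 1810 in the same settings. The count of 164 differences was 296 with slide as a fixed block, 318 with slide as a random block and 83 in the fit of the 20 arrays. Leaving out 1 rat gave 269 to 409 exposed DEGs, 460 to 649 control DEGs and 124 to 187 differences. With 75th percentile scaling 34.6% of the exposed DEGs were over-expressed, against 46.4%. Deviations of exposed rats with the same replicate number had correlations between -0.167 and 0.338 over 5 pairs, so the numbers do not pair the rats, while the 5 pairs on a shared slide had 0.114 to 0.428, and the replicate block gave 310, 570 and 156 calls. Small changes that turned in sign were those of S100a9 (0.03 with slide as a fixed block, 0.01 with the series matrix, -0.08 to 0.07 over the fits without 1 exposed rat), Sftpc (-0.11 with 75th percentile scaling, 0.00 with the linear mean over spots, -0.07 to 0.09 over the fits without 1 exposed rat) and Hspb1 (-0.04 with normexp, -0.03 with the series matrix). Where not shown by fewer genes or arrays, the cause was not tested. Genes not well above background have bounds only.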

Other observations

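Of 14 mast cell and eosinophil genes tested, 1 was over-expressed in exposed rats (0.588% of all genes) and 3 in control rats (1.46%), and the changes in exposed rats lay between -0.467 and 0.914 on the log2 scale. The 1 gene was Mcpt8. Mcpt8, a basophil granule protease, rose 1.74-fold in exposed rats (log2 change 0.80, SE 0.142, limma adjusted p = 0.000236) and by 1.08 on the log2 scale in control rats. Its relatives, named after their values were seen, were Mcpt9 (log2 change 0.93, adjusted p = 3.57e-05), Mcpt10 (0.88, adjusted p = 0.000392) and Mcpt8l3 (1.09, adjusted p = 0.00718). For each of these 4 the exposed values of D3 did not overlap those of D0. They are close paralogs, which probes may not separate. The call of Mcpt8l3 was lost in 4 settings, with an adjusted p of up to 0.266.

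Of 16 neuropeptide and nociceptor genes tested, 3 were under-expressed in exposed rats (0.678% of all genes) and 3 in control rats (0.805%). Those of exposed rats were Calca, the precursor of calcitonin gene-related peptide (log2 change -1.03, SE 0.228, adjusted p = 0.00366), Tac1, that of substance P (-0.87, adjusted p = 0.00166), and Gal, galanin, which was well above background on no array of D3 in either group. Gal was well above background on 2 arrays of exposed D0, and its bound was a fold of 0.837, which does not establish a fall. In control rats Calca fell by 0.77 (adjusted p = 0.0276), Tac1 had a log2 change of -0.19 (adjusted p = 0.687), and Gal was also called lower (adjusted p = 8.08e-05). For Tac1 the difference between exposed and control rats, -0.67, was not called by limma (adjusted p = 0.269). The call of Gal in exposed rats was lost in 10 settings, among them leaving out D0 replicates 1, 2 or 5 or D3 replicates 2, 3, 4 or 5, with an adjusted p of up to 0.242. Siglech, a receptor of plasmacytoid dendritic cells, rose by 1.02 (adjusted p = 0.0244) in exposed and by 1.72 in control rats, and in exposed rats the call was lost without any 1 of D0 replicates 1 or 2 or D3 replicates 3 or 4, with an adjusted p of up to 0.184. Ifna2, an interferon, was at least 1.43-fold lower at D3 (adjusted p = 0.0282), with no array of D3 well above background. That call was lost in 8 settings, among them leaving out exposed D0 replicates 3 or 5 or exposed D3 replicates 2 or 4, with an adjusted p of up to 0.428.

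Olfactory receptor genes were among the largest changes at dim signals. Olr662 was at least 2.38-fold higher at D3 (adjusted p = 0.00580), Olr1424 at least 1.69-fold lower (adjusted p = 0.0139; up to 0.172 in the 2 settings that lost it, one of them without exposed D0 replicate 4) and Olr1308 at least 1.06-fold lower (adjusted p = 0.0369). The call of Olr1308 was lost in 11 settings with an adjusted p of up to 0.261, among them leaving out exposed D0 replicates 2, 4 or 5 or any 1 rat of exposed D3 (0.0701 without replicate 1). Nr4a3, an immediate early gene, had a log2 change of 1.16 with no overlap between the days (adjusted p = 0.141), and with slide as a fixed block it was called (log2 change 1.31, adjusted p = 0.0400), as was its difference from control rats (adjusted p = 0.0142, against 0.136 without the block). Zbtb16, a glucocorticoid target, had a log2 change of -2.14 with overlap (adjusted p = 0.163).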
